A study of Mus musculus with 4 samples.

Results

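The 4 secreted factors Csf1, Csf2, Csf3 and Flt3l and the 5 receptor genes Csf1r, Csf2ra, Csf2rb, Csf3r and Flt3 were followed through the cells of MC38 tumors. They were chosen by gene symbol, and all 9 were found among the 32285 genes of the count files. A fixed list of 36 further genes of the same pathways was described beside them, including Il34, the other ligand of Csf1r, and Csf2rb2, a paralog of Csf2rb. MC38 is a mouse colon carcinoma line, grown here under the skin of C57BL/6 mice. The tumor cells carried RAC1 either unedited (WT) or with the A159V substitution, which CRISPR editing had placed in the endogenous gene. Mice bearing either kind of tumor received anti-PD1, an antibody that blocks the inhibitory receptor PD-1 on T cells, or isotype IgG. This gave 4 single-cell libraries, named WT IgG and WT anti-PD1 for the unedited tumors and A159V IgG and A159V anti-PD1 for the edited ones. Edited lines were grown from single cells, so genotype and clone cannot be told apart, and the sources used here do not give the number of mice behind each library. The host was the same in all 4 groups, and its own cells carried no RAC1 edit. With 1 library per group, a difference between libraries has no replicate check and no test could be run. Intervals below are 95% intervals for counting error only.

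Csf1 (M-CSF) and Il34 signal through the receptor tyrosine kinase Csf1r and maintain monocytes and macrophages. Csf2 (GM-CSF) signals through an alpha chain, Csf2ra, paired with the beta chain Csf2rb, which the Il3 and Il5 receptors share, while Csf3 (G-CSF) acts through Csf3r on neutrophils and their precursors. Flt3l acts through the receptor tyrosine kinase Flt3, on which the formation of dendritic cells depends. In tumors these factors shape the number and state of myeloid cells, and tumor cells, fibroblasts and activated lymphocytes can all be sources.

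The 4 files held 7430 to 9311 cells each. Of these, 6466 to 8248 per library were analyzed, with a median of 3321 to 4173 UMIs (molecules counted once each) per cell. Between 13 and 22 cell barcodes were shared by any pair of libraries. Cells were grouped into classes by clustering without the 9 genes or the pathway list, and classes were named from marker genes. The name of a class is "-like" throughout, and 4 of 47 clusters (3206 of 29184 cells) kept no name. The WT anti-PD1 library stood apart: it held 41 tumor-like cells against 2017 in WT IgG and 2798 and 2080 in the A159V libraries (IgG, then anti-PD1), and 1568 stromal-like cells against 147, 186 and 187. It was also the source of 10 of the 11 clusters that came to over 80% from 1 library. CD45+ and CD45- cells had been separated on beads and remixed at a set ratio, so the number of cells per class describes the loaded mix. Because these 41 tumor-like cells are fewer than the 50 required here, tumor-like cells were compared between the other 3 libraries only. Rac1 itself was counted at 435, 409.6 and 406 CPM (UMIs per 1000000 UMIs of the class) in tumor-like cells of WT IgG, A159V IgG and A159V anti-PD1; a count per gene does not show the edited codon and so does not check the genotype. Where 4 values stand in a row below, the pair from WT tumors (IgG, then anti-PD1) comes before the pair from A159V tumors (IgG, then anti-PD1).

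In mm10, Csf1 lies at chr3:107741048-107760469 on the minus strand, Csf2 at chr11:54247271-54249667 (minus), Csf3 at chr11:98701263-98703629 (plus) and Flt3l at chr7:45129788-45136432 (minus). Of the receptor genes, Csf2ra lies at chr19:61223957-61228429 (minus), Csf2rb at chr15:78325752-78353847 (plus), Csf3r at chr4:126024550-126044440 (plus) and Flt3 at chr5:147330741-147400489 (minus), while Csf1r is on chromosome 18 (plus). Il34 lies at chr8:110741829-110805924 (minus). Csf2rb2 lies beside Csf2rb at chr15:78282507-78305721 (minus), and how reads shared by this pair were divided is uncertain. UMIs were counted over whole genes, exons and introns, and were not assigned to exons here. Csf2, Csf1r, Flt3 and Il34 overlap genes on the opposite strand.

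Among classes of at least 50 cells, Csf1 RNA was highest in neutrophil-like cells and next highest in stromal-like cells, in all 4 libraries. Neutrophil-like cells held 396, 537, 376 and 401 CPM, with intervals of 303 to 508, 492 to 586, 294 to 475 and 335 to 476 CPM. The intervals of WT IgG, A159V IgG and A159V anti-PD1 overlap, and that of WT anti-PD1 overlaps only that of WT IgG. Of the 564 neutrophil-like cells of WT anti-PD1, 556 fell in a cluster that held 19 cells of the other libraries (led by S100a8, Slc7a11 and Il1f9), and most neutrophil-like cells of the other libraries fell in another (led by Retnlg, Ccl3 and Hdc), so the class differs in make-up between them. After every cell was thinned to 1500 UMIs, 28.2, 38.1, 25 and 31.6% of neutrophil-like cells had a Csf1 UMI, against 0% of NK-like cells in each library, which serve as the background of free RNA. Without thinning the shares were 29.2, 38.3, 34 and 26.1%; thinning left out 57, 270, 54 and 142 neutrophil-like cells as too shallow. Stromal-like cells held 184, 113, 184 and 176 CPM, the WT anti-PD1 value lying below the other 3 and close to that of its T-like cells. That low value depends on how stromal-like cells are delimited. With each library clustered on its own, 802 rather than 147 cells of WT IgG were called stromal-like, and 1364 rather than 2017 were called tumor-like. The log2 ratio of the WT anti-PD1 library to this one then went from -0.69 to 0.84, and that of A159V IgG from 0.00 to 1.54. Endothelial-like cells, numerous only in WT anti-PD1 (175 cells), held 34.5 CPM. Monocyte-like cells of WT IgG, A159V IgG and A159V anti-PD1 held 16.4, 13.7 and 13.8 CPM.

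**Figure D1:**
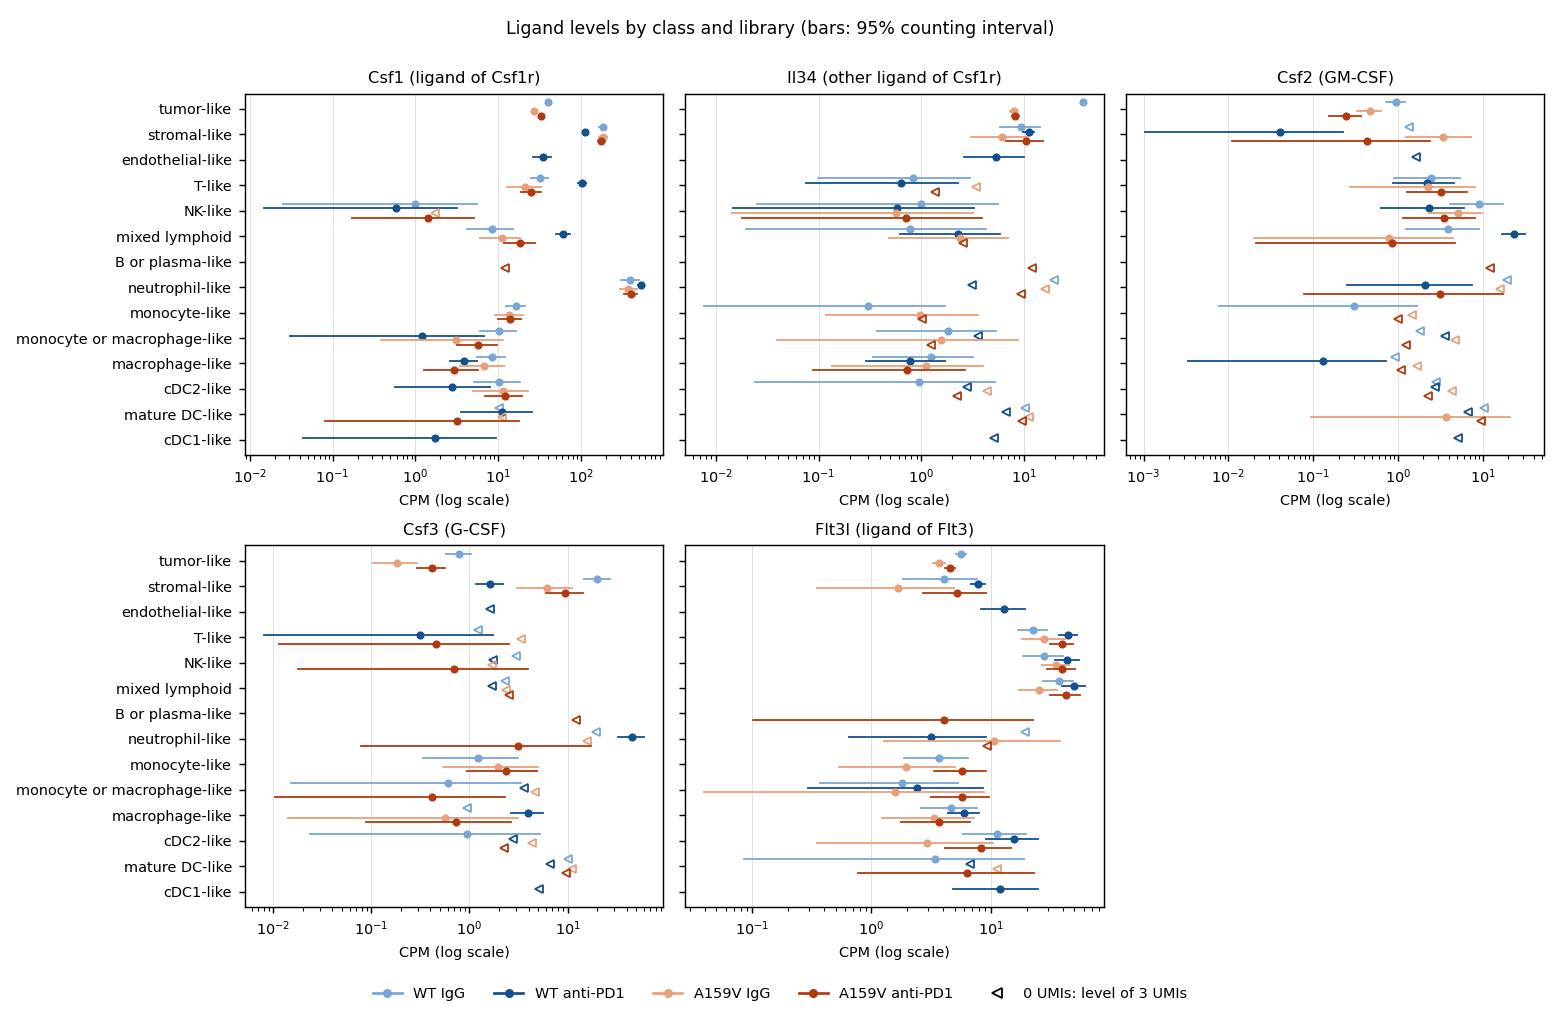
Level of Csf1, Il34, Csf2, Csf3 and Flt3l (CPM of the class, log axis) in each class of at least 50 cells, with 1 point per library and its 95% Poisson interval; an open triangle marks a class with 0 UMIs, drawn at the level of 3 UMIs. Csf1 is highest in neutrophil-like cells of all 4 libraries, and the T-like point of WT anti-PD1 (104 CPM) lies above the other 3 (21.4 to 32 CPM).

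T-like cells of the WT anti-PD1 library held more Csf1 than those of any other library. The levels were 32, 104, 21.4 and 25.1 CPM, from 78, 332, 19 and 55 UMIs, and the interval of WT anti-PD1 (93.5 to 116 CPM) overlapped none of the others, of which the highest was that of WT IgG (25.3 to 40 CPM). Of the 939 T-like cells of WT anti-PD1, 181 had a Csf1 UMI, so the UMIs did not come from a few cells. By subset, CD8 T-like cells held 39, 161, 38.3 and 34 CPM and CD4 T-like cells 18.1, 32.3, 9.81 and 5.58 CPM, the latter from only 5, 11, 1 and 1 UMIs. Treg-like cells held 26.3, 25.2 and 15.9 CPM in WT IgG, WT anti-PD1 and A159V anti-PD1, with overlapping intervals, and 0 UMIs in A159V IgG. Against the limit of 3 UMIs that a count of 0 allows, the Treg-like level of A159V IgG was at least 2.68-fold lower than that of WT IgG. After thinning, 6.07, 18.5, 6.35 and 3.34% of CD8 T-like cells and 3.96, 12.4, 3.64 and 2.61% of all T-like cells had a UMI, against 0% of NK-like cells. Without thinning the T-like shares were 6.43, 19.3, 3.49 and 5.05% and the NK-like shares 0.493, 0.228, 0 and 0.61%; thinning left out 134, 142, 239 and 218 T-like cells.

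Most of this Csf1 came from 1 cluster. A CD8 T-like cluster with Themis, Cxcr6 and Klrc1 among its leading genes, 486 of whose 512 cells were from WT anti-PD1, held 284 of the 332 T-like Csf1 UMIs of that library, at 170.1 CPM. The CD8 T-like cluster led by Cd3g, Cd8a and Ifng, to which the other libraries contributed 59 to 151 cells, held 39.2, 51.2 and 38.6 CPM in WT IgG, A159V IgG and A159V anti-PD1. These 2 clusters are nearly separate in their libraries, so state and library cannot be told apart here. They are not all of the CD8 T-like cells. A cluster led by Themis and Ms4a4b held 153, 23, 118 and 208 cells, and one with Rgs16 among its leading genes 32, 11, 17 and 31. Marker RNA of stromal cells (4 to 7 of 7 genes found) was also higher in T-like cells of WT anti-PD1, at 37.8, 670.2, 43.9 and 70.2 CPM. In NK-like cells of the same library it was 692 CPM, and Csf1 was 0.58 CPM. Neutrophil marker RNA in T-like cells was 119, 84.6, 65.3 and 73.4 CPM. The part of stromal or neutrophil RNA in the T-like Csf1 value was not tested. Csf1 was also higher in the mixed lymphoid cells of WT anti-PD1, at 8.51, 60.6, 11.1 and 18.6 CPM. The make-up of this class differed between libraries: the cluster led by Gm2682 and Bcl2 held 194 cells of WT IgG and 15 of WT anti-PD1, and one led by Gm2682 and Stat4 held 3 and 264. Of the 106 Csf1 UMIs of WT anti-PD1, 103 lay in a cluster with Il13, Il5, Gata3 and Tnfsf8 among its leading genes, in 44 of its 105 cells from that library (220.4 CPM), a cluster with 19 cells in WT IgG. The 35 mast or basophil-like cells of WT anti-PD1 held 71 Csf1 UMIs in 22 cells.

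In tumor-like cells Csf1 was lower in both A159V libraries, and Il34 was lower by far more. Csf1 stood at 39.9, 27.4 and 32.7 CPM in WT IgG, A159V IgG and A159V anti-PD1, with intervals of 38.4 to 41.5, 26.3 to 28.5 and 31.6 to 33.9 CPM that do not overlap. Relative to WT IgG, Csf1 in A159V IgG had a log2 ratio of -0.53 (interval -0.61 to -0.45), short of 2-fold. Il34 stood at 37.6, 7.93 and 8.25 CPM in the same 3 libraries, with intervals of 36.1 to 39.1, 7.35 to 8.53 and 7.67 to 8.87 CPM. Both A159V libraries were low and did not differ beyond their intervals, and Il34 in A159V IgG had a log2 ratio to WT IgG of -2.11 (interval -2.22 to -2.0). After thinning, 6.39, 1.69 and 1.36% of tumor-like cells had an Il34 UMI (55.6, 18.4 and 23.4% without thinning), and 14, 9 and 21 cells were left out. The 41 tumor-like cells of WT anti-PD1 held 60 Il34 UMIs.

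The tumor-like cells were not of the same make-up in the 3 libraries. In WT IgG, 1161 of 2017 lay in a cluster led by Tafa1, Sema3a and Edil3, which had no tumor marker among its 10 leading genes. With WT IgG clustered alone, 802 rather than 147 of its cells were called stromal-like and 1364 rather than 2017 tumor-like, so which cells make up these classes in WT IgG is uncertain. The cluster held only 162 and 116 cells in the A159V libraries (IgG, then anti-PD1), whereas the A159V cells lay mainly in the clusters led by Dynap and Adam2 and by Cxcl10 and Il1rl1. Within the Tafa1 cluster Il34 was 47.4, 27.6 and 16 CPM in WT IgG, A159V IgG and A159V anti-PD1, within the Dynap cluster 24.9, 6.75 and 6.76 CPM, and within the Cxcl10 cluster 27.2, 7.73 and 8.87 CPM. Il34 was thus highest in WT IgG within each of the 3 clusters, with log2 ratios of A159V IgG to WT IgG of -0.76, -1.74 and -1.69. Csf1 was not lower in each: its log2 ratios in the same order were 0.27 (interval 0.06 to 0.49), -0.40 (interval -0.57 to -0.22) and -0.17 (interval -0.30 to -0.04). Stromal marker RNA (7 of 7 genes) in tumor-like cells was 430.1, 115 and 90.7 CPM, highest in WT IgG as Il34 was. Stromal-like cells held Il34 at 9.41, 11.1, 6.15 and 10.4 CPM. The part of stromal RNA in the tumor-like Il34 values was not tested. The 44 pericyte-like cells, all from WT anti-PD1, held 101 Il34 UMIs in 34 cells.

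**Figure D2:**
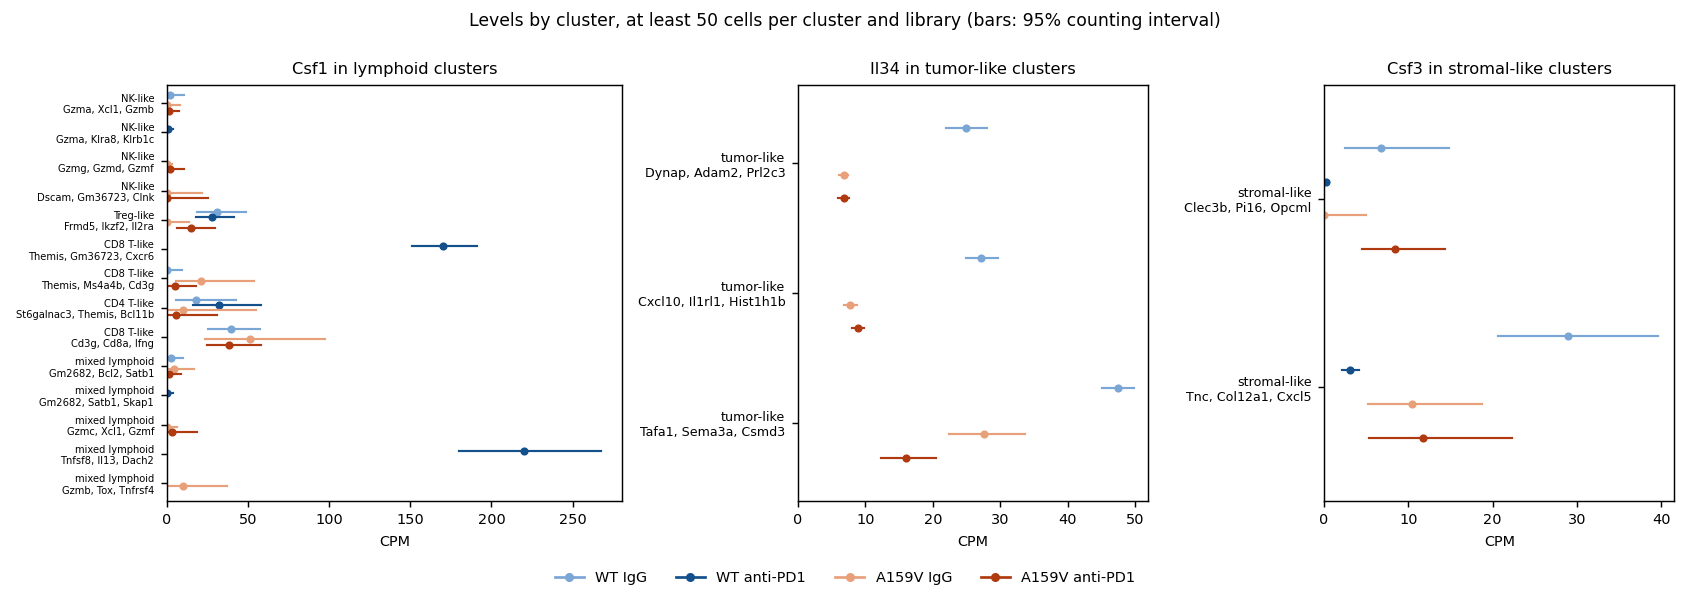
Csf1 in the lymphoid clusters, Il34 in the tumor-like clusters and Csf3 in the stromal-like clusters (CPM of the cluster and library, 95% Poisson intervals, points by library). Csf1 in WT anti-PD1 is concentrated in the cluster with Il13 and Gata3 (220.4 CPM) and the Themis and Cxcr6 cluster (170.1 CPM), and Il34 is highest in WT IgG in each of the 3 tumor-like clusters.

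Csf2 was rare in every library: 82, 60, 60 and 41 UMIs in all. NK-like cells held 9.03, 2.32, 5.15 and 3.51 CPM, from 9, 4, 9 and 5 UMIs, and T-like cells 2.46, 2.2, 2.25 and 3.19 CPM, with overlapping intervals among the libraries within each class. The mixed lymphoid cells of WT anti-PD1 were the exception, with 5, 41, 1 and 1 UMIs over the 4 libraries (3.87, 23.5, 0.79 and 0.846 CPM). The 41 UMIs of WT anti-PD1 came from 10 cells, 19 of them from 1 cell. Of these, 39 lay in the cluster with Il13, Il5 and Gata3 that also held Csf1. In tumor-like cells the 61, 41 and 22 Csf2 UMIs of WT IgG, A159V IgG and A159V anti-PD1 came from 16, 16 and 10 cells. Such counts, bunched in few cells, vary more between cells than the counting intervals allow for.

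Csf3 UMIs lay in stromal-like and tumor-like cells in all libraries and, in WT anti-PD1 alone, in numbers in neutrophil-like and macrophage-like cells. Neutrophil-like cells held 0, 43, 0 and 1 UMIs, those of WT anti-PD1 in 22 of 564 cells (45 CPM). Against the limit of 3 UMIs for the 96 neutrophil-like cells of WT IgG, this was at least 2.31-fold higher. Stromal marker RNA in neutrophil-like cells (3 to 7 of 7 genes found) was 51.9, 1167, 84.8 and 199 CPM, also highest in WT anti-PD1. The macrophage-like cells of WT anti-PD1 held 30 Csf3 UMIs in 12 cells, against 0, 1 and 2 UMIs in WT IgG, A159V IgG and A159V anti-PD1. Neutrophil marker RNA in macrophage-like cells was 107, 62.3, 84.7 and 93.9 CPM. The part of such RNA of other classes in these Csf3 values was not tested. Stromal-like cells held 20.2, 1.63, 6.15 and 9.53 CPM, from 45, 40, 11 and 22 UMIs. The WT IgG value rests on 13 of 147 cells, 1 of which gave 15 UMIs, and that of WT anti-PD1 on 14 of 1568 cells, 1 of which gave 23. In the stromal-like cluster led by Tnc and Col12a1 Csf3 was 29, 3.03, 10.5 and 11.8 CPM, and in the one led by Clec3b and Pi16 it was 6.78, 0.167, 0 and 8.42 CPM.

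Flt3l was spread over lymphoid cells and was higher in T-like cells of WT anti-PD1 than of WT IgG. T-like cells held 22.6, 44.4, 28.1 and 39.2 CPM, from 55, 141, 25 and 86 UMIs, with log2 ratios of anti-PD1 over IgG of 0.94 (interval 0.51 to 1.38) in WT and 0.46 (interval -0.16 to 1.09) in A159V. Neither reached 2-fold, and the A159V interval includes 0. By subset, CD4 T-like cells held 14.5, 52.8, 39.3 and 44.6 CPM (from 4, 18, 4 and 8 UMIs) and CD8 T-like cells 25.7, 46.7, 21.3 and 45.6 CPM. NK-like cells held 28.1, 43.5, 34.9 and 39.4 CPM and mixed lymphoid cells 37.1, 49.8, 25.3 and 42.3 CPM, so that NK-like, T-like and mixed lymphoid cells had overlapping intervals within each library. After thinning, 4.3, 6.65, 2.27 and 5.75% of T-like cells had a UMI (7.41, 12.9, 5.23 and 9.97% without thinning), against 0.873, 0.724, 0.548 and 0.676% of macrophage-like cells (1.97, 2.77, 0.796 and 1.43%). Tumor-like cells held 5.64, 3.7 and 4.58 CPM in WT IgG, A159V IgG and A159V anti-PD1.

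As loaded, tumor-like cells held most UMIs of Csf1, Il34 and Flt3l in every library but WT anti-PD1. They held 78.2, 82.2 and 79.7% of the Csf1 UMIs of WT IgG, A159V IgG and A159V anti-PD1, but 2.31% of those of WT anti-PD1, where stromal-like cells held 69.1%, neutrophil-like cells 12.7% and T-like cells 8.25%. Their share of Il34 was 98.2, 13, 96.6 and 96.4% and of Flt3l 65.4, 1.3, 69.6 and 59.9%. The Csf3 UMIs of WT anti-PD1 were divided among neutrophil-like (35.2%), stromal-like (32.8%) and macrophage-like cells (24.6%), and 68.3% of its Csf2 UMIs lay in mixed lymphoid cells. These shares depend on the remixing of CD45+ and CD45- cells, the number of cells captured per class and their depth. Tumor-like cells held 63984672 of the 82972292 UMIs of all genes in WT IgG and 88697309 of 102048343 in A159V IgG. In A159V anti-PD1 they held 90040824 of 111154842, and in WT anti-PD1 stromal-like cells held 24517125 of 47958932. A large share of a ligand's UMIs in these classes therefore does not show a high level there.

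**Figure D3:**
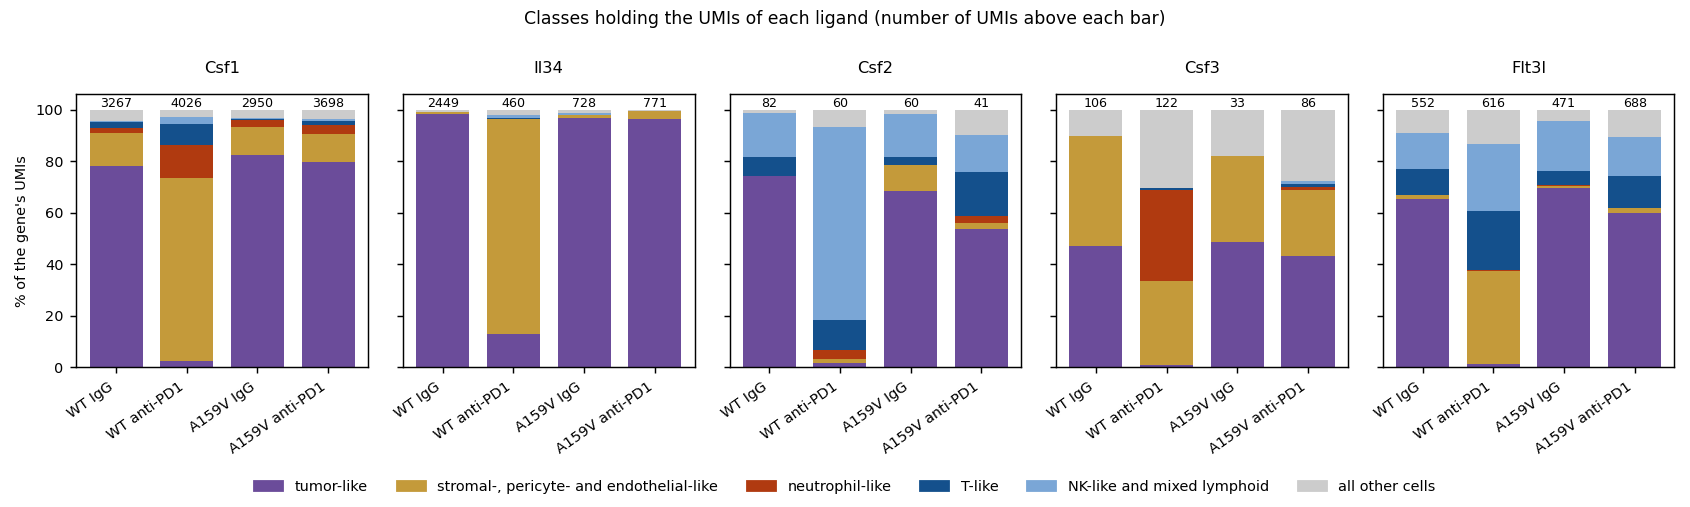
Percent of the UMIs of each ligand gene that each class held, by library (stacked bars from 0 to 100%; the number of UMIs stands above each bar). Tumor-like cells hold 78.2 to 82.2% of Csf1 in 3 libraries, where they also hold most UMIs of all genes, and stromal-like cells 69.1% in WT anti-PD1.

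Csf1r RNA was highest in monocytic cells, and among these in WT anti-PD1. Taking every monocyte or macrophage cluster together, unnamed ones included, the level was 189, 238, 164 and 193 CPM. WT anti-PD1 had the highest and A159V IgG the lowest of these, with log2 ratios over WT IgG of 0.33 (interval 0.24 to 0.42) and -0.20 (interval -0.31 to -0.10), both well short of 2-fold. Macrophage-like cells held 175, 228, 143 and 179 CPM and cells named only as monocyte or macrophage-like 264, 356, 255 and 277 CPM. In the latter the log2 ratio of WT anti-PD1 over WT IgG was 0.43. It ranged from -0.91 to 0.57 over 4 alternatives, the lowest with each library clustered on its own. Monocyte-like cells, with only 17 cells in WT anti-PD1, held 177, 155 and 179.9 CPM in WT IgG, A159V IgG and A159V anti-PD1, close to macrophage-like cells of the same libraries. Macrophage-like cells of WT anti-PD1 lay mostly in 3 clusters that held 69.5, 84.7 and 93.9% cells of that library. In the order of these shares, its Csf1r level was 328 CPM in the cluster led by Ccl8, Mrc1 and Retnla, 255 CPM in that led by Arg1 and Slc16a10, and 125 CPM in that led by Mmp12, Cd36 and Lpl. The Ccl8 cluster also held 142 cells of A159V anti-PD1, with Csf1r at 257 CPM. In the C1qa and Ms4a7 cluster, which all libraries shared, it was 178, 249, 145 and 154 CPM, again highest in WT anti-PD1. After thinning, 23.3, 26.6, 19 and 19.8% of macrophage-like cells had a UMI, against 0, 0.502, 0.455 and 0.523% of T-like cells. Without thinning the macrophage-like shares were 44, 52.6, 26.4 and 39.9%; thinning left out 75, 347, 207 and 107 macrophage-like cells. Among other classes, cDC2-like cells held 91.4, 65.2, 72.6 and 69 CPM. Neutrophil-like cells held 84.4, 33.5, 154 and 40.4 CPM; macrophage marker RNA in them (5 to 7 of 7 genes found) was 201, 231, 991 and 229.8 CPM, also highest in A159V IgG, and its part in the Csf1r value was not tested.

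**Figure D4:**
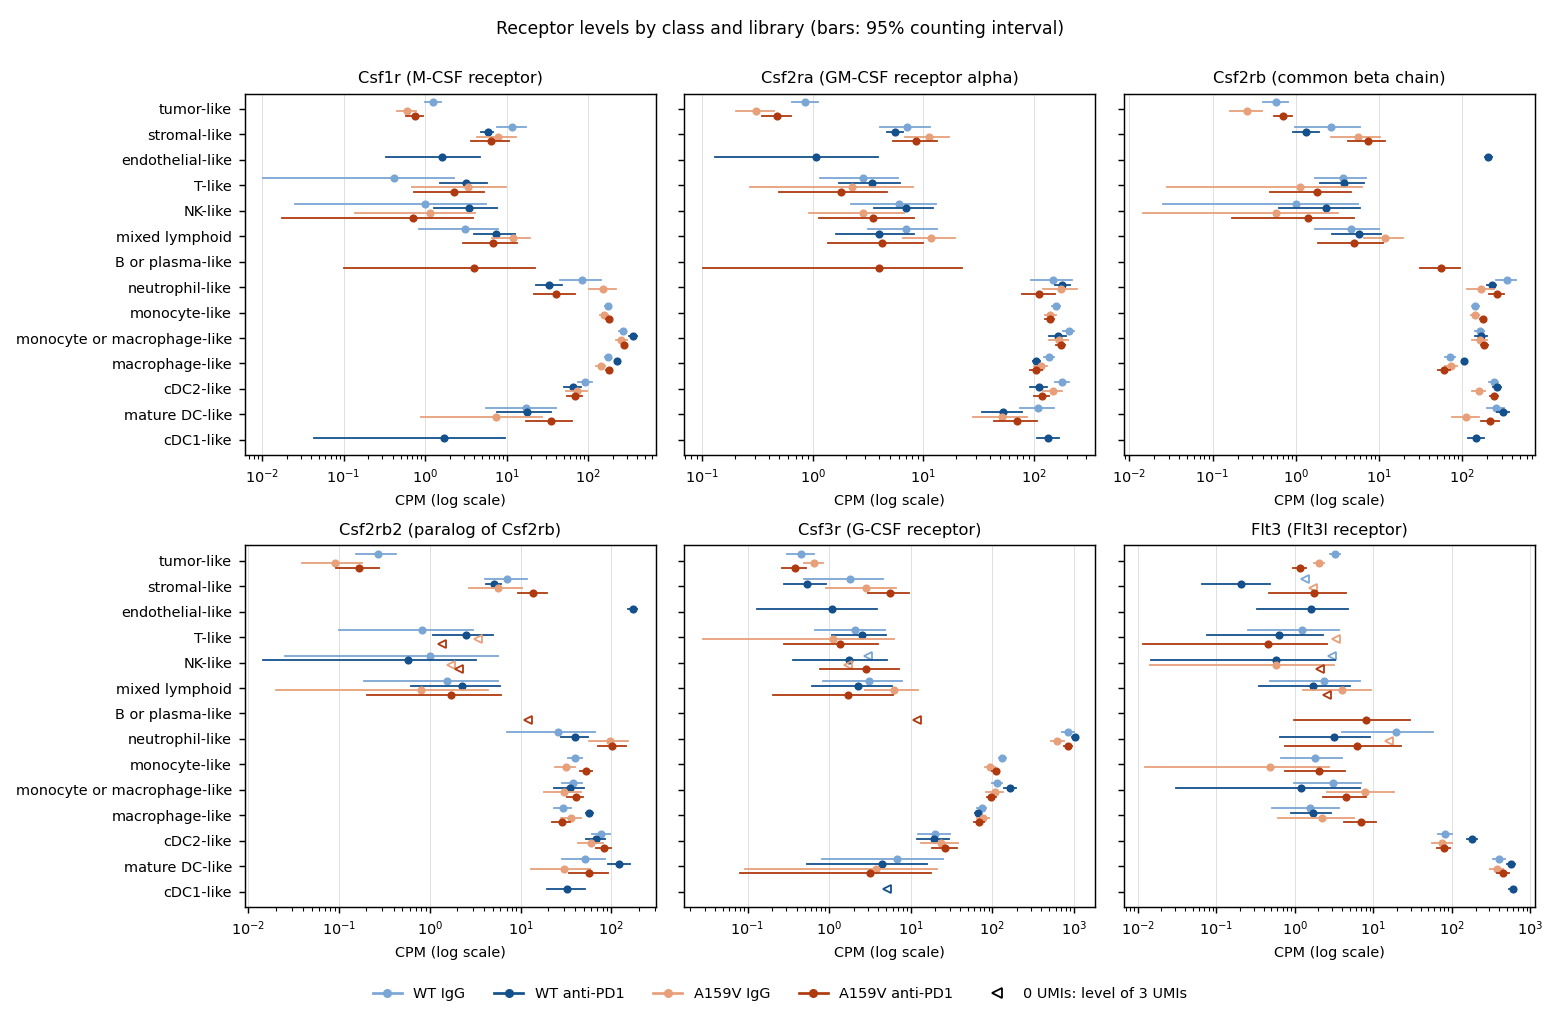
Level of Csf1r, Csf2ra, Csf2rb, Csf2rb2, Csf3r and Flt3 (CPM of the class, log axis) in each class of at least 50 cells, with 1 point per library and its 95% Poisson interval; an open triangle marks 0 UMIs, drawn at the level of 3 UMIs. Csf3r is highest in neutrophil-like cells (625 to 1019.5 CPM) and Flt3 in dendritic classes.

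The GM-CSF receptor has an alpha chain, Csf2ra, that binds only this factor. Csf2ra in all monocytic cells was 157, 111, 123 and 123 CPM, lower than WT IgG in the other 3 libraries, with log2 ratios to it of -0.34 (interval -0.47 to -0.22) for A159V IgG and -0.49 (interval -0.61 to -0.38) for WT anti-PD1. In cDC2-like cells it was 181, 111, 148 and 118 CPM, in neutrophil-like cells 149, 182, 175 and 112 CPM and in mature DC-like cells 109, 53.2, 52.1 and 70.1 CPM, WT IgG being highest in both dendritic classes. The 59 cDC1-like cells of WT anti-PD1 held 135 CPM; the other libraries had 19 to 22 such cells.

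Csf2rb, the shared beta chain, was highest in neutrophil-like and dendritic cells of every library but A159V IgG, where monocyte or macrophage-like cells (163 CPM) lay between them. Neutrophil-like cells held 344, 226, 169.6 and 261 CPM, with WT IgG highest and A159V IgG lowest. Mature DC-like cells held 252, 310.4, 112 and 217 CPM and cDC2-like cells 238, 262, 158 and 245 CPM. A159V IgG was lowest in all 3 classes, with log2 ratios over WT IgG of -1.02 (interval -1.65 to -0.39) in neutrophil-like, -1.17 (interval -1.78 to -0.56) in mature DC-like and -0.59 (interval -0.91 to -0.27) in cDC2-like cells. Marker RNA also differed between the libraries in these classes. In neutrophil-like cells neutrophil marker RNA was 38342, 19868, 29907 and 38324 CPM, lowest in WT anti-PD1. Macrophage marker RNA in them was 201, 231, 991 and 229.8 CPM, highest in A159V IgG. The summed RNA of the neutrophil marker list in mature DC-like cells was 491, 239, 197 and 401 CPM, lowest in A159V IgG. Only 1, 5, 1 and 3 of its 7 genes were found there, so in both IgG libraries the sum is 1 gene. In cDC2-like cells the sum was 812, 544, 1028 and 927 CPM, highest in A159V IgG. Il1r2, a gene of this list, was among the leading genes of the larger cDC2-like cluster. The sums in dendritic classes therefore need not be RNA of neutrophils. The part of this marker RNA in the Csf2rb values was not tested. Csf2rb in A159V anti-PD1 lay above A159V IgG in each of the 3 classes. The log2 ratios were 0.62, 0.95 and 0.62, with intervals of 0.03 to 1.20, 0.33 to 1.57 and 0.31 to 0.94. Both comparisons rest on the same A159V IgG library. Macrophage-like cells held 72, 106, 73.5 and 60.9 CPM, the WT anti-PD1 value being the highest (log2 ratio 0.55, interval 0.34 to 0.76). That direction did not hold over all monocytic cells (log2 ratio -0.15) or with each library clustered on its own (-0.09). Monocyte-like cells of WT IgG, A159V IgG and A159V anti-PD1 held 144, 142 and 177 CPM. Endothelial-like cells of WT anti-PD1 held 207 CPM, and 28 of its 35 mast or basophil-like cells had a Csf2rb UMI. The paralog Csf2rb2 was 29, 57.2, 36.2 and 28.2 CPM in macrophage-like, 51.1, 122, 29.8 and 57.4 CPM in mature DC-like and 26, 39.8, 95.4 and 102 CPM in neutrophil-like cells, the last from 4, 38, 18 and 33 UMIs.

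Csf3r, the G-CSF receptor, was highest in neutrophil-like cells. They held 857, 1019.5, 625 and 851 CPM, with intervals of 717 to 1016, 956 to 1086, 518 to 749 and 753 to 958 CPM. A159V IgG was lowest, its interval lying below those of both anti-PD1 libraries and overlapping that of WT IgG. That library also had the most macrophage marker RNA in neutrophil-like cells (991 CPM) and less neutrophil marker RNA (29907 CPM) than WT IgG or A159V anti-PD1; their part in the Csf3r value was not tested. After thinning, 61.5, 72.1, 34.6 and 64.5% of neutrophil-like cells had a UMI (58.3, 71.3, 55.7 and 62.8% without thinning), against 0.344, 0.376, 0 and 0.348% of T-like cells. Monocyte-like cells held 132, 93.8 and 109.7 CPM in WT IgG, A159V IgG and A159V anti-PD1, and macrophage-like cells 73.9, 66.9, 76.3 and 68.6 CPM. In monocyte-like cells A159V IgG was lower than WT IgG (log2 ratio -0.49, interval -0.74 to -0.25). Csf3r in cDC2-like cells was 19.8, 19.3, 23.2 and 26.3 CPM, and in mature DC-like cells it had 2, 2, 1 and 1 UMIs.

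The level of Flt3 was highest in dendritic classes. The libraries held 496, 849, 398 and 452 Flt3 UMIs in all, and a large part of those of the IgG libraries lay in other cells. The 59 cDC1-like cells of WT anti-PD1 held 597 CPM, with a UMI in 51 cells, and the 19 to 22 cDC1-like cells of each other library held 41, 34 and 41 UMIs. Mature DC-like cells held 399, 563, 372 and 446 CPM, the WT anti-PD1 value being highest, with an interval (496 to 637 CPM) that overlapped only that of A159V anti-PD1 (375 to 526 CPM). In cDC2-like cells Flt3 was 82, 182, 75.5 and 78.8 CPM: WT anti-PD1 lay above the other 3, which overlapped one another, with a log2 ratio over WT IgG of 1.14 (interval 0.78 to 1.50). Alternatives gave 0.88 to 1.30, so the value straddles 2-fold. Macrophage marker RNA in these cDC2-like cells was 357, 137, 418 and 189.8 CPM, lowest in WT anti-PD1; its part in the Flt3 value was not tested. Thinned shares were 32.3, 47.3, 41.7 and 47.3% for mature DC-like cells (65.4, 68.3, 54.1 and 59.6% without thinning, with 13, 8, 27 and 15 cells left out), against 0.172, 0.125, 0 and 0% for T-like cells. The 4 to 36 pDC-like cells per library held 13, 6, 10 and 15 Flt3 UMIs and 7, 3, 19 and 15 Csf2rb UMIs, and at most 5 UMIs of any other member in a library. The 26 to 58 B or plasma-like cells held 7, 8, 2 and 14 Csf2rb UMIs and at most 6 of any other.

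Between A159V IgG and WT IgG, pairs of gene and class were counted over classes with at least 50 cells in both libraries. This comparison asks how the tumor genotype goes with the factors and receptors without treatment. A gene counted as measured in a class with at least 10 CPM in 1 library and 10 UMIs over both. Of 42 such pairs of gene and class, 2 were higher and 6 lower in A159V IgG past 2-fold (19.0%). Of all gene and class pairs, 6.35% passed the same fold (3.47% higher and 2.87% lower). That share differed by class: 23.3% in neutrophil-like, 15.2% in mature DC-like, 7.7% in cDC2-like and 2.47% in macrophage-like cells. The median log2 ratio of the 42 was -0.15. Lower pairs included Csf2rb in mature DC-like cells, past 2-fold under 7 of 8 alternatives, Csf2rb in neutrophil-like cells, past it under 3 of 8, and Csf3 in stromal-like cells (log2 ratio -1.56, interval -2.40 to -0.73), which was higher in A159V IgG (0.81) with each library clustered on its own. Csf2ra in mature DC-like cells was lower as well (log2 ratio -1.05 (interval -1.94 to -0.16); past 2-fold under 5 of 8 alternatives), while Flt3l in cDC2-like cells (2 against 12 UMIs) and Csf1 in monocyte or macrophage-like cells (2 against 17 UMIs) rest on few molecules and their intervals include 0. The 2 higher pairs were Csf1r and Csf2rb in mixed lymphoid cells, from 15 against 4 and 15 against 6 UMIs. Macrophage marker RNA in mixed lymphoid cells, of which all 7 genes were found, was 62.7, 93.3, 137 and 89.6 CPM, highest in A159V IgG; its part in these 2 values was not tested. In macrophage-like and monocyte-like cells the receptors measured were Csf1r, Csf2ra, Csf2rb and Csf3r, and Flt3 was not. None of them passed 2-fold, and few genes did there (2.47 and 2.73% of all genes).

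**Figure D5:**
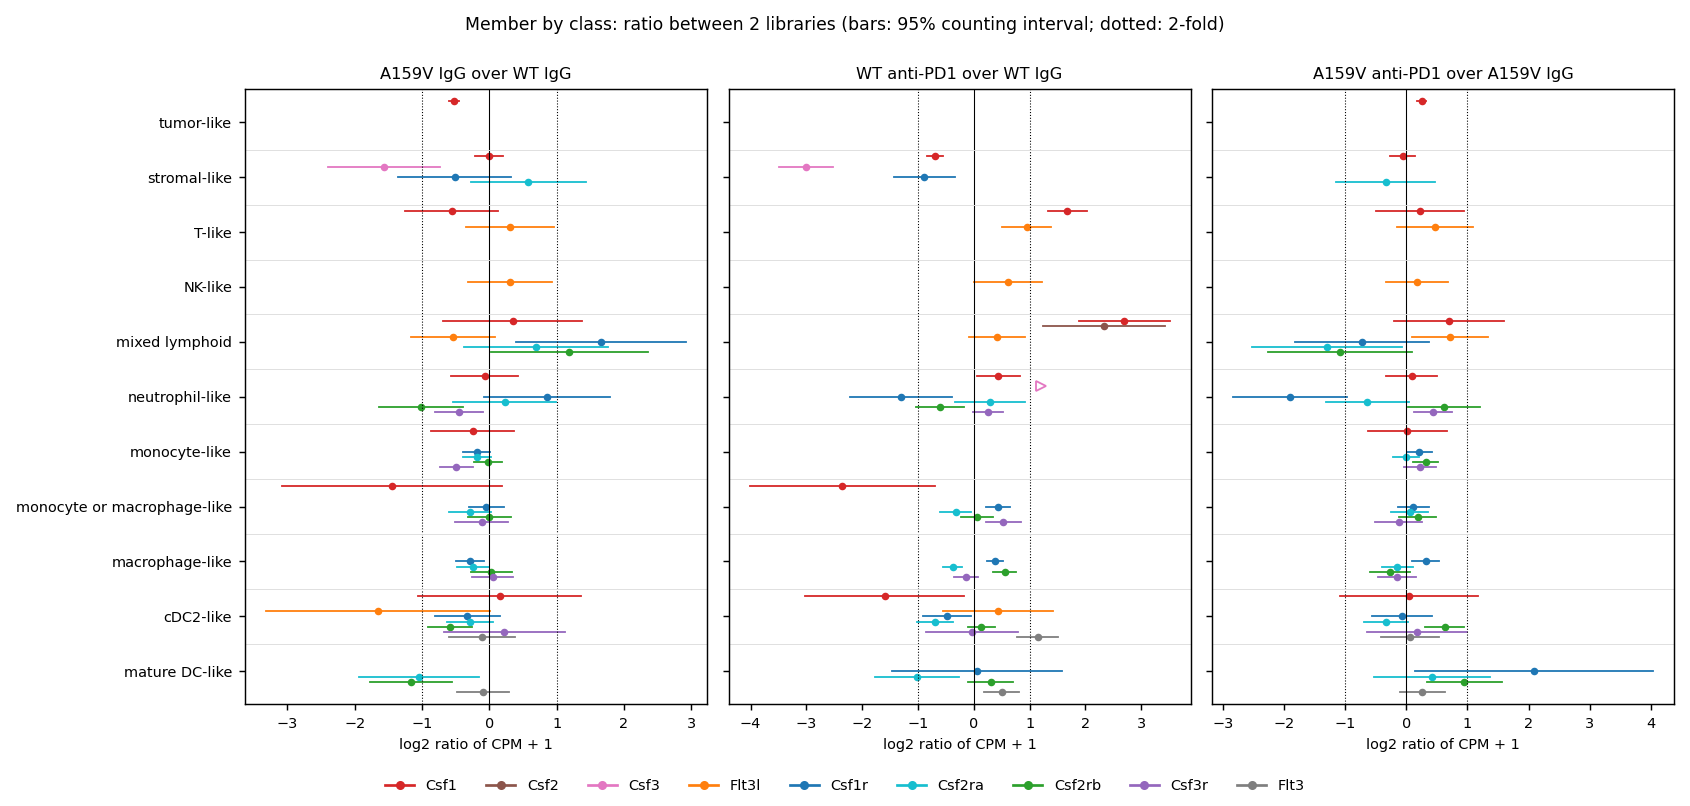
Log2 ratio of each gene (pseudocount 1 CPM, 95% counting interval) by class for the 3 comparisons (A159V IgG against WT IgG on the left, anti-PD1 against IgG in WT tumors in the middle and in A159V tumors on the right); dotted lines mark 2-fold and the open triangle a lower bound against 0 UMIs. In the middle panel Csf1 in T-like cells (1.67) and in mixed lymphoid cells (2.70) lie to the right of the 2-fold line.

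Anti-PD1 in WT tumors went with more Csf1 in T-like and mixed lymphoid cells and with Csf3 in neutrophil-like cells. Of 35 measured pairs, 5 were higher and 5 lower past 2-fold (28.6%), beside 18.8% of all gene and class pairs (11.1% higher and 7.69% lower). By class, the share of all genes was 35.8% in neutrophil-like, 22.1% in cDC2-like, 20.9% in mature DC-like and 16.2% in macrophage-like cells. The median log2 ratio of the 35 was 0.25. Csf1 in T-like cells had a log2 ratio of 1.67 (interval 1.33 to 2.02), or 1.47 after subtracting the median of all genes in T-like cells, and all 9 alternatives kept it past 2-fold (1.46 to 2.0). In CD8 T-like cells the log2 ratio was 2.02 (interval 1.61 to 2.43), and in mixed lymphoid cells 2.70 (interval 1.89 to 3.51). The mixed lymphoid ratios of Csf1 and Csf2 compare classes of different make-up, since nearly all of these UMIs of WT anti-PD1 lay in the cluster with Il13 and Gata3. The other higher pairs were Csf2 in mixed lymphoid cells (log2 ratio 2.33, interval 1.24 to 3.42), Csf3 in neutrophil-like cells and Flt3 in cDC2-like cells. Lower pairs were Csf3 in stromal-like cells (log2 ratio -3.01, interval -3.50 to -2.52), Csf2ra in mature DC-like cells (-1.02, interval -1.77 to -0.27), Csf1r in neutrophil-like cells (-1.31, interval -2.22 to -0.39), and Csf1 in cDC2-like and in monocyte or macrophage-like cells, the last 2 from 3 against 11 and 1 against 17 UMIs. Csf3 in stromal-like cells was -0.63 with each library clustered on its own. Over all monocytic cells, Csf1 had a log2 ratio of -1.45 (interval -1.88 to -1.01) in WT tumors. In A159V tumors it was -0.30 (interval -0.69 to 0.09). The make-up of this set differed, with 949 monocyte-like cells in WT IgG and 17 in WT anti-PD1. The median log2 ratio of all genes was itself 0.36 in NK-like, 0.23 in cDC2-like, 0.21 in T-like and mixed lymphoid, 0.15 in monocyte or macrophage-like and -0.13 in macrophage-like cells, and every log2 ratio given here is before that shift unless stated.

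Anti-PD1 in A159V tumors went with few differences past 2-fold. Of 39 measured pairs, 1 was higher and 3 lower (10.3%), beside 6.02% of all gene and class pairs (3.11% higher and 2.91% lower), and the median log2 ratio was 0.12. By class, the share of all genes was 21.1% in neutrophil-like, 14.5% in mature DC-like, 7.92% in cDC2-like and 3.74% in macrophage-like cells. Csf1 in T-like cells, the gene with the clearest value in WT, had 19 UMIs without and 55 UMIs with anti-PD1 in A159V tumors, a log2 ratio of 0.22 (interval -0.50 to 0.94). The difference between the WT and A159V log2 ratios was 1.45 (counting interval 0.66 to 2.25) in T-like and 2.19 (1.31 to 3.06) in CD8 T-like cells. In Treg-like cells the difference was -4.13 (-5.31 to -2.96), but it rests on 0 UMIs in A159V IgG. Its size there is set by the pseudocount, and the interval holds no counting error for that library. No size is therefore read from it. With 1 library per group these differences were not tested against replicates. The lower pair with the largest log2 ratio was Csf1r in neutrophil-like cells (log2 ratio -1.90, interval -2.83 to -0.98), in which macrophage marker RNA went from 991 to 229.8 CPM; its part in this value was not tested. The pairs Csf2ra and Csf2rb in mixed lymphoid cells (5 and 6 against 15 UMIs each) and Csf1r in mature DC-like cells (11 against 2 UMIs) rest on few molecules, and the first and last of these turned direction under an alternative. In CD8 T-like cells Flt3l had a log2 ratio of 1.07 (interval 0.14 to 1.99). The comparisons share libraries: WT IgG enters the first and the second, and A159V IgG the first and the third, so they are not independent of one another.

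Of the other pathway genes, Kitl and Il34 were the 2 that differed past 2-fold in tumor-like cells between genotypes. Kitl, the ligand of the receptor Kit, stood at 168 CPM in WT IgG and 37.5 CPM in A159V IgG (log2 ratio -2.13), the WT IgG value including the Tafa1 cluster. In all, 0 of 16 measured genes of the list of 36 were higher and 2 lower, beside 5.90% of all genes; next came Socs3, an inhibitor of cytokine signaling, at -0.85. In macrophage-like cells 0 of 26 measured genes passed 2-fold between A159V IgG and WT IgG (2.47% of all genes) and in monocyte-like cells 0 of 27 (2.73%). The leading values there were Socs1 (-0.97) in macrophage-like cells, and Cebpa (-0.86) and Cish (-0.86), a target of Stat5, in monocyte-like cells. In cDC2-like cells 0 of 29 passed (7.70%), led by Irf8 at -0.90, the factor of dendritic cell and monocyte fate. Mature DC-like cells had 1 of 27 higher, Batf3 (1.61), and 1 lower, Cish (-2.02), beside 15.2% of all genes, and neutrophil-like cells 2 higher, Irf8 (21 against 2 UMIs) and Csf2rb2 (18 against 4 UMIs), and 2 lower of 21 (23.3%).

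Under anti-PD1 in WT tumors, 4 of 28 measured pathway genes were higher and 3 lower in macrophage-like cells, beside 16.2% of all genes. Kitl had the largest value (2.48); stromal marker RNA in macrophage-like cells was 54.5, 713, 42.3 and 89.5 CPM, and its part in this value was not tested. Irf4 stood at 2.15. In cDC2-like cells 6 of 29 were higher and 2 lower (22.1%), with Irf4 at 2.25 and Cish at 1.63. Mature DC-like cells had 5 of 28 higher and 0 lower (20.9%), led by Bcl2l11 (1.68), a death-promoting gene, and neutrophil-like cells 5 of 25 higher and 1 lower (35.8%). The A159V tumors had 1 of 26 higher in macrophage-like (3.74%), 1 of 26 in monocyte-like (1.83%), 2 of 27 in mature DC-like (14.5%), 1 of 21 higher and 2 lower in neutrophil-like (21.1%), and none of 29 in cDC2-like (7.92%) or of 14 in tumor-like cells (0.174%). The monocyte-like gene was Cish (1.05) and the macrophage-like gene Socs1 (1.0).

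Over 45 profiles of class and library and 8570 genes, the genes whose log2(CPM + 1) was most like that of each receptor had r of 0.87 to 0.97. Csf1r went with Sirpb1c, Ccl9 and Clec4a3 (Pearson's r 0.96 each), Csf2ra with Plbd1 (0.97) and Spi1 (0.96), Csf2rb with Il1b (0.92), Csf3r with Cd33 (0.96) and Fpr2 (0.95), and Flt3 with Tspan33, Timd4 and H2-DMb2 (0.87 each). Among the ligands, Csf1 went with Eml1 (0.82) and Bmpr1a (0.80), Csf2 with Gzma (0.80), Csf3 with Saa3 (0.74) and Flt3l with Cers4 (0.86). Csf2, Csf3 and Flt3l reached at most 23.5, 45 and 49.8 CPM in any profile, below the 50 CPM required of the compared genes. Their r therefore rests on low levels. The profiles share libraries and differ in depth, so these values describe likeness of pattern only.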

How the data were processed

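Tumors were taken 13 days after implantation and their CD45+ and CD45- cells separated, remixed and run as 10x Genomics 3′ v3.1 libraries. The authors aligned the reads with Cell Ranger (version 7.2.0 in the headers of the files and 5.0.1 in the submitters' processing notes) to mm10 with introns included. The deposited values are raw UMI counts per gene and cell barcode; the authors' later removal of ambient RNA and doublets is not in them. Totals were 54402632 to 125227747 UMIs per library.

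From these counts, cells with more than 500 genes were kept, predicted doublets were removed (0.8% per 1000 cells), and cells were clustered (scanpy 1.11.5, leidenalg 0.10.2; counts scaled to 10000 per cell, 2000 variable genes without the 9 genes and the pathway list, 20 components, 20 neighbors, Leiden resolution 1). Lymphoid and myeloid cells were clustered a second time. Classes were named from 22 marker lists, at least 3 markers of a list being found in 10% of the cells. Lymphoid clusters with markers of both T and NK or innate lymphoid cells were called mixed lymphoid. Counts were summed per class and library and scaled to CPM with an exact Poisson interval (scipy 1.17.1). Log2 ratios used a pseudocount of 1 CPM and a delta-method counting interval. The interval was tried on simulated Poisson counts only, which cannot show how it does with counts bunched in few cells. A gene was called past 2-fold in either direction; no test was possible with 1 library per group. Shares of cells with a UMI were taken after thinning to 1500 UMIs, leaving out shallower cells.

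The 9 genes, the pathway list and the markers were chosen with earlier results of these data known. The 9 genes were measured in every class, and the text gives mainly the classes that held most of their UMIs. From the pathway list at most the 3 genes with the largest absolute log2 ratio per class and comparison are named, and Il34 and Csf2rb2 in any case; the values of 1 gene of the list are not reported here; likeness takes the 3 genes with the highest Pearson correlation. Alternatives were other gene minimums, doublets kept, a mitochondrial limit of 10%, resolutions 0.4 and 2, libraries clustered singly, median-of-ratios scaling, per-cell shares, a pseudocount of 5 CPM, no minimum or one of 50 CPM, and leaving out cells with UMIs of another lineage. All monocytic clusters as 1 set, and the alternatives for Il34 and Kitl, were added after seeing the data.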

Additional observations from a re-analysis of the deposited data

Results flagged for a closer look

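Csf2rb in neutrophil-like cells moved in opposite directions with anti-PD1 in the WT and A159V tumors, each beyond its counting interval. In the WT tumors the level was 344 CPM with IgG and 226 CPM with anti-PD1 (log2 ratio -0.60, interval -1.03 to -0.17), and in the A159V tumors 169.6 and 261 CPM (log2 ratio 0.62, interval 0.03 to 1.20). The WT log2 ratio minus the A159V one was -1.22 (counting interval -1.95 to -0.49). With 1 library per group the difference was not tested. Neutrophil marker RNA in these cells was 38342, 19868, 29907 and 38324 CPM in the same order and so moved the same way, and macrophage marker RNA was 201, 231, 991 and 229.8 CPM; their part in the difference was not tested. The neutrophil-like cells of WT anti-PD1 lay almost wholly in a cluster of their own, and the log2 ratios ranged from -0.60 to -0.44 in WT and from 0.53 to 0.72 in A159V over 8 alternatives.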

How the results depend on the processing

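The number of gene and class pairs past 2-fold was 8 between the IgG libraries, 10 for anti-PD1 in WT and 4 for anti-PD1 in A159V. With no minimum level it was 20, 21 and 23 in the same order, and with a minimum of 50 CPM 3, 5 and 1. Between the IgG libraries it was 5 with cells of more than 1000 genes, and 4 with doublets kept, with resolution 2 or with a pseudocount of 5 CPM. For anti-PD1 in WT it was 6 with per-cell shares. For anti-PD1 in A159V it was 7 with cells of more than 1000 genes, and 2 with per-cell shares, with a pseudocount of 5 CPM or without cells holding UMIs of another lineage. All other settings stayed within 1.5 times of the first counts. Of single pairs past 2-fold, 4 changed direction somewhere. Csf1 in monocyte or macrophage-like cells between the IgG libraries was 0.68 at resolution 2, and Csf3 in stromal-like cells 0.81 with separate clustering of each library. In A159V tumors, Csf1r in mature DC-like cells under anti-PD1 was -2.31 with cells of more than 1000 genes and -0.84 with separate clustering of each library, and Csf2ra in mixed lymphoid cells 0.19 with doublets kept. The cause was not tested. Il34 in tumor-like cells kept its direction and stayed past 2-fold under all 9 settings (-2.26 to -1.71), as did Kitl (-2.42 to -1.56). Csf1 in tumor-like cells stayed below 2-fold, at -0.71 to -0.26. A class was missing under a setting in 125 cases, which then have no value. No paired analysis was possible because each group is 1 library. Depth limits Csf2, with 41 to 82 UMIs per library, Csf3, with 33 to 122, and dendritic classes of under 50 cells.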

Other observations

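Cells of the unnamed clusters held RNA of these genes as well. A cluster led by Cxcl3, Pf4 and Mmp13, without a name because its markers did not settle one, held 327, 72, 547 and 853 cells over the 4 libraries. Its Csf2rb level was 164, 129, 162 and 134 CPM, its Csf1r level 145, 199, 145 and 143 CPM and its Csf1 level 22.1, 5.84, 18.7 and 14.9 CPM. Csf1r there lay close together in WT IgG, A159V IgG and A159V anti-PD1. Another, led by Slfn4 and of low depth, held Csf1r at 216, 224 and 214 CPM and Csf3r at 156, 148 and 186 CPM in those 3 libraries.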
